A study of Mus musculus with 7 samples.

Results

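The genes described here are 38 genes of fatty acid uptake and oxidation, chosen by name for their role: uptake and binding of fatty acids, their activation to acyl-CoA, transport into mitochondria as carnitine esters, beta oxidation, and the regulators of this pathway. All 38 were found among the 48820 genes of the count table, and 37 had enough counts to be tested. RNA-seq was done on whole tibialis anterior, a shin muscle, of male mice aged 7 weeks, taken on day 3 after the muscle was injured with barium chloride (BaCl2), which kills muscle fibres and starts their repair by muscle stem cells. The 4 Sirt7 scKO libraries came from mice of genotype Sirt7fl/fl; Pax7-CreERT2, and the 3 control libraries from mice of genotype WT; Pax7-CreERT2. Both groups therefore carried the Pax7-CreERT2 driver, a drug-inducible Cre recombinase made in Pax7-positive muscle stem cells, and how Cre was induced was not stated in the labels. The deletion is aimed at that lineage, while the RNA came from every cell of the muscle, so fewer cells of a type and less RNA per cell cannot be told apart in any value below. The labels name the libraries of each group as biological replicates.

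Long-chain fatty acids enter cells through carriers such as CD36, are held by small binding proteins in the cytosol and are joined to coenzyme A by acyl-CoA synthetases. Carnitine palmitoyltransferase 1 then commits them to the mitochondrion, where a repeating cycle of oxidation, hydration, oxidation and thiolysis shortens the chain and passes electrons to the respiratory chain. Resting and endurance muscle burns much fatty acid, and so do macrophages that clear debris and resolve inflammation, whereas proliferating myoblasts lean more on glycolysis. PPAR nuclear receptors and the coactivator PGC-1alpha turn many of these genes on.

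Total counts ran from 5425095 to 7553137 in the Sirt7 scKO libraries and from 5601699 to 5777563 in the control libraries. Sirt7 itself had 39.7, 34.1, 47.9 and 53.0 CPM (counts scaled to a common library size, with TMM factors) in Sirt7 scKO replicates 1 to 4, against 46.2, 70.6 and 57.3 CPM in control replicates 1 to 3. The groups overlapped and the difference did not pass the test (log2 fold change -0.42, SE 0.162, edgeR adjusted p = 0.288). The labels do not say which exons are deleted, and the count covers all exons. Markers of mature muscle fibres were present in every library, and 29 of 30 were tested. All 29 had negative fold changes, and none passed the threshold with edgeR, with 20 at an unadjusted p under 0.05 and 2 past it with DESeq2 (Myh2 and Actn3). Their summed level was 1112 to 5143 CPM in the Sirt7 scKO libraries and 3049 to 7845 CPM in the control libraries. It was highest in control replicate 1, and Sirt7 scKO replicate 1, with 5143 CPM, stood above control replicate 3. Regenerating fibre markers summed to 527 to 700.2 CPM in Sirt7 scKO and 629 to 1370 CPM in control, and 11 of 12 were negative, 7 of them at an unadjusted p under 0.05. Sums of muscle stem cell, fibro-adipogenic progenitor, neutrophil and peripheral nerve markers overlapped between the groups, and no marker of these lists or of regenerating fibres passed with edgeR. Of the 13 fibro-adipogenic markers 12 were negative, and 4 were lower at an unadjusted p under 0.05. Of 4 tested neutrophil markers S100a8 and S100a9 were higher at that p without overlap, of 9 tested stem cell markers 1 was higher and 2 were lower, and no nerve marker reached it. DESeq2 passed Dpt of the fibro-adipogenic progenitors as lower.

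No fatty acid gene passed an adjusted p of 0.05 with edgeR's quasi-likelihood test, where 22 of 16764 genes did, or 0.131% of those tested (0.101% higher and 0.0298% lower). Cd36, Fabp4, Cpt1a and Slc25a20 had higher mean levels in Sirt7 scKO muscle, and Acadvl a lower one, and these 5 were the members at an unadjusted p under 0.05. They made up 13.5% of the 37 members tested, and 13.6% of all tested genes reached the same unadjusted p (6.69% higher and 6.94% lower). The groups did not overlap in 4 members, Cd36, Fabp4, Acadvl and Acads, or 10.8%, against 12.2% of all tested genes (6.51% higher and 5.71% lower). DESeq2 passed 1 member, Fabp4, as higher, where it passed 1.06% of genes (0.545% higher), and limma voom passed no member and 0.137% of genes. Without a filter on low counts edgeR passed Fabp4 and Cd36 as higher, among 0.735% of genes. Log2 fold changes were positive in 16 members and negative in 21, with a median of -0.04, beside a median of 0.01 over all tested genes. In 26 of the 37 (70.3%) the fold change was smaller than 0.2 on the log2 scale in either direction, as in 64.4% of all tested genes, and in 33 the 95% interval lay between -1 and 1. The number of genes passing over the whole table depended on the libraries: it was 2 without control replicate 1, 0 without control replicate 2, 56 without control replicate 3, 184 without Sirt7 scKO replicate 1, 7 without Sirt7 scKO replicate 3 and 330 without Sirt7 scKO replicate 4. Without that last library Fabp4, Cpt1a and Slc25a20 passed as higher (edgeR adjusted p = 0.0356, 0.038 and 0.0419), among 0.786% of all genes passing in that direction.

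**Figure D1:**
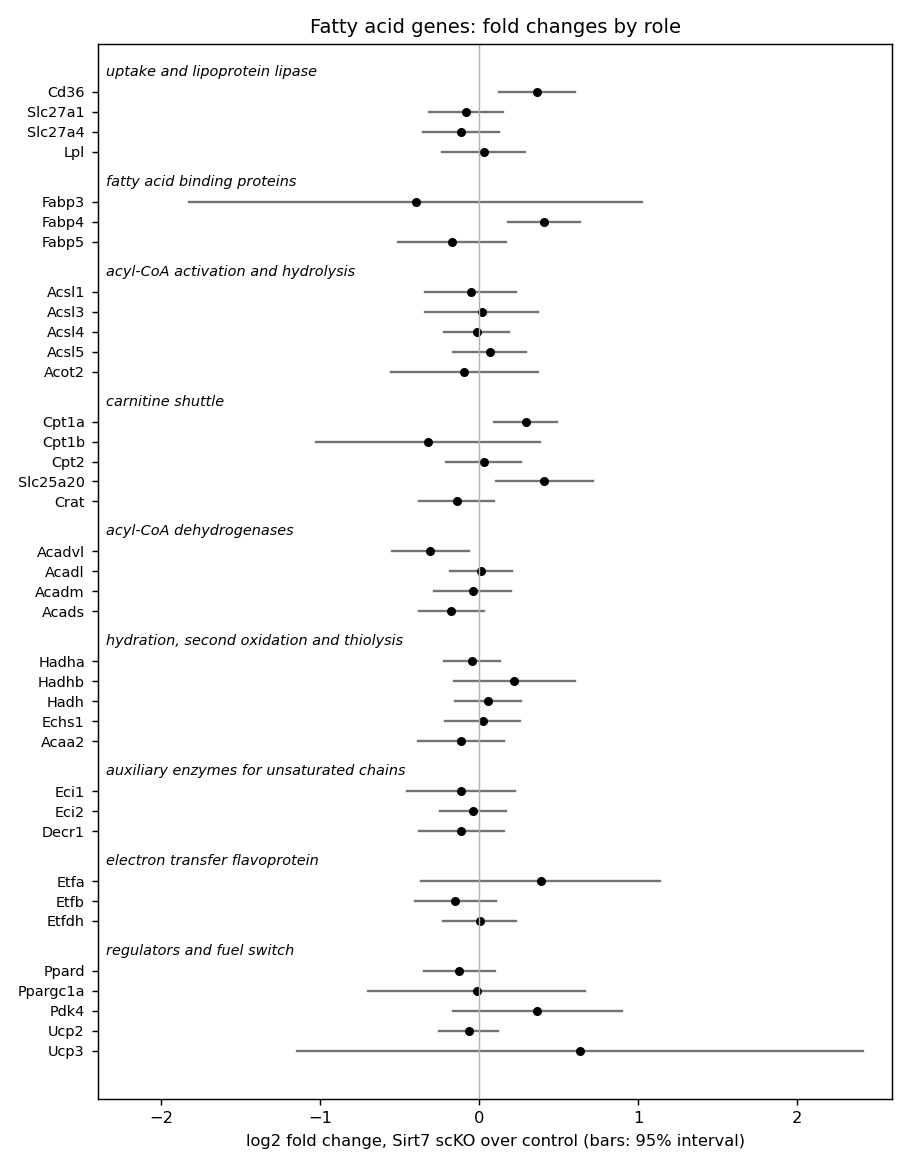
Log2 fold change of each of the 37 tested members, Sirt7 scKO over control, grouped by role, with points for the estimate and bars for its 95% interval (4 Sirt7 scKO and 3 control libraries). Most points lie close to 0. The intervals of Cd36, Fabp4, Cpt1a and Slc25a20 lie above 0 and that of Acadvl below it before adjustment for the number of genes. Fabp3, Ucp3, Etfa and Cpt1b have wide intervals.

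Among the carriers that bring fatty acids into cells, Cd36 had the highest level. Cd36 (ENSMUSG00000002944.15, GRCm38 chr5:17781690-17888801, minus strand) encodes a scavenger receptor and fatty acid translocase of macrophages, capillary endothelium, adipocytes and muscle fibres. Its level was 622, 491, 533 and 470.3 CPM in Sirt7 scKO replicates 1 to 4, against 383, 385 and 464 CPM in control replicates 1 to 3. The groups did not overlap, although Sirt7 scKO replicate 4 and control replicate 3 were close together. The means were 529 ± 67.2 CPM in Sirt7 scKO and 411 ± 46.5 CPM in control (SD, n = 4 and 3). On the log2 scale the difference was 0.37 (SE 0.11, 95% interval 0.13 to 0.60), which did not pass the test over all genes (edgeR adjusted p = 0.194). Cd36 passed in 2 of 17 alternatives, among them edgeR without the filter (adjusted p = 0.0134), and its adjusted p over all 17 ran up to 0.571.

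The other carriers and lipoprotein lipase, which frees fatty acids from circulating triglyceride, differed less between the groups. Lpl had 720.1, 541, 703 and 671 CPM in the Sirt7 scKO libraries, against 540.0, 668 and 730.4 CPM in the control libraries. The groups covered the same range, with a log2 fold change of 0.03 (95% interval -0.23 to 0.29, edgeR adjusted p = 0.941). Slc27a1, the fatty acid transport protein of muscle and fat, averaged 183 ± 19.5 CPM in Sirt7 scKO and 194 ± 26.4 CPM in control. Slc27a4, a related transport protein, averaged 36.2 ± 3.88 CPM in Sirt7 scKO and 39.3 ± 2.31 CPM in control (SD, n = 4 and 3 for both genes), and neither passed the test (edgeR adjusted p = 0.781 and 0.69).

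The fatty acid binding proteins carry fatty acids through the cytosol, with Fabp3 the form of muscle and heart, Fabp4 that of adipocytes, capillaries and macrophages, and Fabp5 a widely expressed form. Fabp4 (ENSMUSG00000062515.3, chr3:10204088-10208576, minus strand) had the smallest p of all members. It stood at 206, 174, 191 and 163 CPM in Sirt7 scKO replicates 1 to 4, against 123, 156 and 136 CPM in control replicates 1 to 3. All 4 Sirt7 scKO libraries were above all 3 control libraries, the closest pair being Sirt7 scKO replicate 4 and control replicate 2. Fabp4 differed by 0.41 on the log2 scale (SE 0.105, 95% interval 0.18 to 0.63), which missed the threshold (edgeR adjusted p = 0.136). It passed in 4 of 17 alternatives, among them DESeq2 (adjusted p = 0.0417), edgeR without a filter on low counts (adjusted p = 0.0055) and edgeR without Sirt7 scKO replicate 4 (adjusted p = 0.0356), and its adjusted p over all 17 ran up to 0.417.

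Markers of the cells that make Cd36 and Fabp4 were read beside them. The summed level of 14 endothelial markers was 663 to 743 CPM in Sirt7 scKO and 651 to 772 CPM in control, with 9 positive and 5 negative fold changes. For 18 monocyte and macrophage markers it was 13173 to 16396 CPM in Sirt7 scKO and 14086 to 14960 CPM in control, with 8 positive and 10 negative. The 11 adipocyte markers summed to 18.3 to 36.2 CPM in Sirt7 scKO and 15.8 to 26.4 CPM in control, all with at least 1 count in some library, and of the 5 that could be tested 3 were positive. No marker of these 3 lists passed with edgeR or DESeq2, with 6 at an unadjusted p under 0.05, and the groups overlapped in each of the 3 sums. Blood markers, haemoglobin and red cell genes, summed to 163, 134, 492 and 112 CPM in Sirt7 scKO replicates 1 to 4, against 105, 114 and 102 CPM in control replicates 1 to 3. All 5 tested blood markers had positive fold changes, none past the threshold with edgeR or DESeq2 and all at an unadjusted p under 0.05. Sirt7 scKO replicates 1 to 3, the 3 libraries with the highest blood sums, were also the 3 with the highest Cd36 and the highest Fabp4. The part of these cell types in the levels of Cd36 and Fabp4 was not tested.

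**Figure D2:**
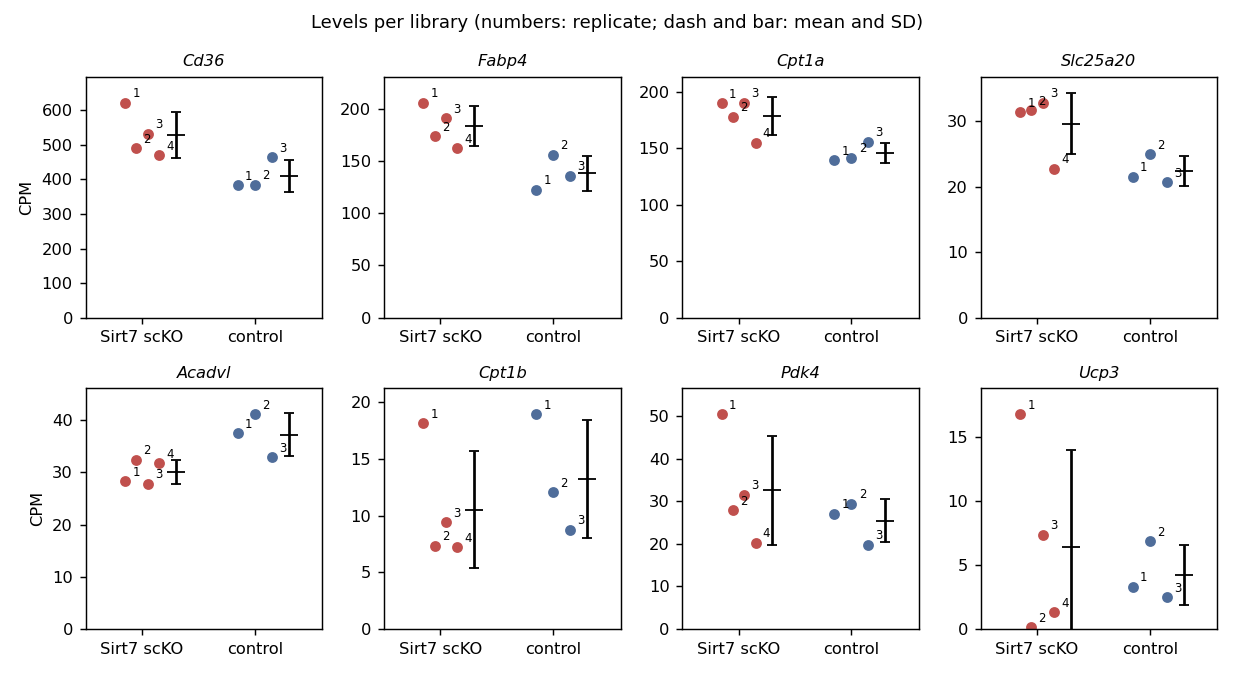
CPM of 8 members in each library (y axis from 0), Sirt7 scKO on the left and control on the right of each panel. Numbers give the replicate, and the dash and bar give mean and SD; the lower part of the bar for Ucp3 in Sirt7 scKO is cut at 0. The groups do not overlap for Cd36 and Fabp4, higher in Sirt7 scKO, and Acadvl, lower in Sirt7 scKO, and Cpt1b, Pdk4 and Ucp3 vary widely within groups.

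Counts of Fabp3, Fabp5, Etfa and Hadhb were spread over processed copies of these genes. A processed copy is an intronless duplicate of a spliced transcript that sits elsewhere in the genome, and a read of the spliced gene that crosses an exon junction matches the copy without a break. Fabp3 (ENSMUSG00000028773.8, chr4:130308595-130315463, plus strand) had 80 counts over the 7 libraries, while its copy Fabp3-ps1 (chr10:86731987-86732388, minus strand) had 833. The copy matched 399 of 402 aligned bases of the Fabp3 transcript and ran across all 3 junctions of its coding sequence. The same 60 coding bases are shown for each pair because they cross a junction: capitals mark the 3 bases on either side of it, and in the gene an intron of 3440 bases (Fabp3) or 282 bases (Hadhb) lies between them (GENCODE transcripts, GRCm38, written in the direction of the gene; Fabp3 chr4:130308821-130312320 plus strand, Fabp3-ps1 chr10:86732286-86732345 minus strand, Hadhb chr5:30163714-30164055 plus strand, Gm13910 chr2:108948843-108948902 plus strand).
Fabp3: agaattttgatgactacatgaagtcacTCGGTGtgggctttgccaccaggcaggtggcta
Fabp3-ps1: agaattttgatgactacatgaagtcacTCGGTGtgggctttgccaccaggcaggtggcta
Hadhb: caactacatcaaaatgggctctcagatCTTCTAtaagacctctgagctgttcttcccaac
Gm13910: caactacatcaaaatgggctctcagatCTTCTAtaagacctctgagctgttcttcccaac
Each pair had 0 mismatches over these 60 bases, so a short read from there cannot be assigned between gene and copy by its sequence.

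The share of counts that fell on the gene itself was small in all 4 cases. It was 8.76% for Fabp3, 8% for Fabp5, 6.18% for Etfa and 16.1% for Hadhb, with the rest on copies of at least 90% identity. The largest was Gm6166, a copy of Fabp5 on chr9:57483963-57484371 (plus strand), with 29036 counts beside 2752 at Fabp5. The rule by which reads matching several places were counted is not given, and neither is the handling of reads that cross an exon junction. The counts of these 4 genes and of their copies are therefore uncertain.

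Adding the copies changed what the 4 genes showed. At the gene alone Fabp5 had 63.9, 53.9, 45.1 and 80.4 CPM in Sirt7 scKO replicates 1 to 4, against 62.0, 70.6 and 71.8 CPM in control replicates 1 to 3. With its copies the values were 932, 821, 765 and 747 CPM in Sirt7 scKO, against 649.6, 762 and 785 CPM in control. The log2 fold change was -0.17 (SE 0.157, edgeR adjusted p = 0.676) at the gene and 0.15 (SE 0.102, edgeR adjusted p = 0.541) with copies, and the groups overlapped on both scales. Fabp3, the muscle form, had 2.25, 0.523, 1.198 and 2.84 CPM in Sirt7 scKO, against 4.69, 1.44 and 0.350 CPM in control, at the gene alone. With copies it had 25.0, 13.6, 16.5 and 16.5 CPM in Sirt7 scKO, against 31.3, 27.5 and 17.7 CPM in control, where control replicate 3 lay within the Sirt7 scKO range. Its log2 fold change was -0.40 (SE 0.659) at the gene and -0.51 (SE 0.217, edgeR adjusted p = 0.325) with copies. Etfa and Hadhb turned direction too, at 0.39 and 0.22 at the gene and -0.01 and -0.13 with copies, and neither passed the test on either scale (edgeR adjusted p from 0.613 to 0.974). The copies were added after their counts had been seen.

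**Figure D3:**
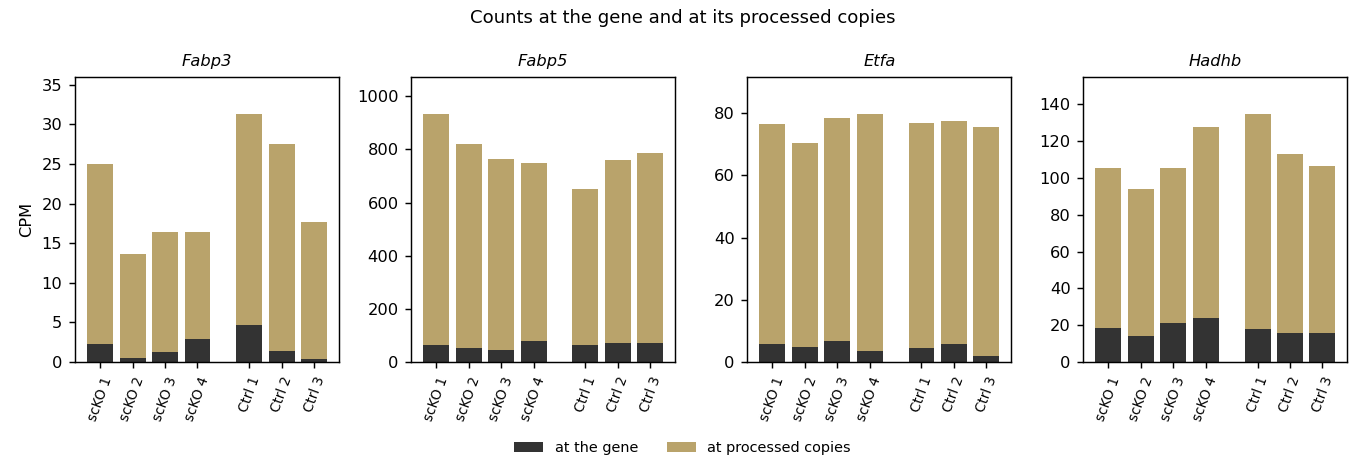
CPM at the gene (dark) and at its processed copies (light, stacked on top) for Fabp3, Fabp5, Etfa and Hadhb, in the 4 Sirt7 scKO libraries on the left and the 3 control libraries on the right of each panel, with y axes from 0. Copies hold most of the counts of all 4 genes in every library.

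Acyl-CoA synthetases activate fatty acids, and Acot2, a thioesterase, reverses this step in mitochondria; all 5 genes had fold changes close to 0. Acsl1, the synthetase of muscle, fat and liver, had 36.9, 25.2, 28.4 and 31.4 CPM in Sirt7 scKO replicates 1 to 4, against 30.8, 34.3 and 29.8 CPM in control replicates 1 to 3. Sirt7 scKO replicate 1 lay above the whole control range and replicates 2 and 3 below it. The log2 fold changes of Acsl1, Acsl3, Acsl4, Acsl5 and Acot2 ran from -0.09 to 0.07, and the smallest edgeR adjusted p was 0.824. Per kb of exon, Acsl4, the form that prefers arachidonic acid, stood at 11.2 CPM per kb in Sirt7 scKO and 11.3 CPM per kb in control, and Acsl1 at 2.91 CPM per kb in Sirt7 scKO and 3.02 CPM per kb in control.

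The carnitine shuttle moves activated fatty acids into mitochondria, and 2 of its 5 genes, Cpt1a and Slc25a20, were at an unadjusted p under 0.05. Cpt1a (ENSMUSG00000024900.5, chr19:3322334-3385733, plus strand) encodes the rate-setting carnitine palmitoyltransferase of most tissues other than muscle fibres. Its level was 190.1, 178, 190.1 and 155 CPM in Sirt7 scKO replicates 1 to 4, against 139, 142 and 156 CPM in control replicates 1 to 3. Sirt7 scKO replicates 1 to 3 lay above all controls, and replicate 4 just below control replicate 3. Cpt1a differed by 0.29 on the log2 scale (SE 0.0913, 95% interval 0.10 to 0.49, edgeR adjusted p = 0.209).

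Slc25a20 (ENSMUSG00000032602.6, chr9:108662088-108684641, plus strand) encodes the carrier that exchanges acylcarnitine for carnitine across the inner mitochondrial membrane. It stood at 31.4, 31.7, 32.8 and 22.7 CPM in Sirt7 scKO replicates 1 to 4, against 21.5, 25.0 and 20.7 CPM in control replicates 1 to 3. Here too replicates 1 to 3 of Sirt7 scKO were higher than every control library, and replicate 4 fell among the controls. The summed blood markers given above had the same layout, with the 3 highest sums in Sirt7 scKO replicates 1 to 3 and replicate 4 within the control range, and the part of blood content in Slc25a20 and Cpt1a was not tested. The difference of 0.41 on the log2 scale (SE 0.141, 95% interval 0.11 to 0.72) had an edgeR adjusted p of 0.246.

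Cpt1b, the form of muscle fibres, showed another pattern over the libraries. It had 18.1, 7.33, 9.43 and 7.19 CPM in Sirt7 scKO replicates 1 to 4, against 18.9, 12.0 and 8.76 CPM in control replicates 1 to 3 (log2 fold change -0.32, SE 0.326, edgeR adjusted p = 0.707). The libraries with the highest Cpt1b, control replicate 1, Sirt7 scKO replicate 1 and control replicate 2, were also those with the highest summed fibre markers (7845, 5143 and 5139 CPM, in that order), and the part of fibre content in Cpt1b was not tested. Per kb of exon, the ratio of Cpt1b to Cpt1a was 0.216, 0.0933, 0.112 and 0.105 in Sirt7 scKO replicates 1 to 4 and 0.308, 0.193 and 0.127 in control replicates 1 to 3. The non-muscle form exceeded the muscle form in every library, and the ratios of the groups overlapped.

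The remaining shuttle genes differed less. Cpt2, which remakes acyl-CoA inside the mitochondrion, averaged 30.6 ± 0.628 CPM in Sirt7 scKO and 29.97 ± 3.47 CPM in control (SD, n = 4 and 3). Crat, which handles short acyl groups, had 93.3, 72.2, 72.6 and 89.9 CPM in Sirt7 scKO replicates 1 to 4, against 96.9, 87.5 and 86.7 CPM in control replicates 1 to 3. Its log2 fold change was -0.14 (SE 0.108, edgeR adjusted p = 0.594), with Sirt7 scKO replicates 2 and 3 below and replicates 1 and 4 within the control range.

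The promoters of Cpt1a and Slc25a20 are printed because these shuttle genes had the same direction and passed together without Sirt7 scKO replicate 4. PPARs bind, with the receptor RXR, direct repeats of the letters AGGTCA spaced by a single base. Both strands were searched for AGGTCA and for the repeat AGGTCANAGGTCA, every copy of which also holds the shorter motif, in RefSeq promoters (GRCm38.p6, from 250 bases before to 50 after the start), which were found for 31 of the 38 members. These 31 members had 34 promoters. The shorter motif was in 6 of the 34 (of Acadm, Acadvl, Cd36, Cpt1a, Echs1 and Ucp3) and in 16.3% of 32851 promoters. The repeat was in none of the 34 and in 0.0396% of all, too rare for its absence here to be read as a result. The 250 bases before the start are given for Cpt1a (chr19:3323051-3323300, plus strand) and Slc25a20 (chr9:108661886-108662135, plus strand), with the shorter motif, which reads TGACCT here on the printed strand, in capitals.
Cpt1a: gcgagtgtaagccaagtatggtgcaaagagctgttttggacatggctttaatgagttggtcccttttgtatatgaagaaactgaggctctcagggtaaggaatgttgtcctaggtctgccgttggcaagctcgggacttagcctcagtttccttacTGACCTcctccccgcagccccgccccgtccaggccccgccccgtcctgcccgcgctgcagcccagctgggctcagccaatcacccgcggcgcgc
Slc25a20: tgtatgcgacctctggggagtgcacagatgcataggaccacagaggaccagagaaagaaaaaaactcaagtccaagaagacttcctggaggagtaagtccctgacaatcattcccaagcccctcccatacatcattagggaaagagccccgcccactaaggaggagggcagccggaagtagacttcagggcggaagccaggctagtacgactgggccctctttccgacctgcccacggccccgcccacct
The motif is a match of letters in these windows, and no binding was measured. The starts used for the windows are those of RefSeq and differ from the GENCODE gene starts given above. The whole Cpt1a window and the end of the Slc25a20 window lie inside the GENCODE spans of these genes.

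The acyl-CoA dehydrogenases carry out the opening step of each round of beta oxidation, each for its own chain length. Acadvl (ENSMUSG00000018574.14, chr11:70010183-70015411, minus strand), the enzyme for very long chains, had 28.3, 32.4, 27.8 and 31.8 CPM in Sirt7 scKO replicates 1 to 4, against 37.5, 41.1 and 32.9 CPM in control replicates 1 to 3. The groups did not overlap, and Sirt7 scKO replicate 2 lay just below control replicate 3. Acadvl had a log2 fold change of -0.31 (SE 0.113, 95% interval -0.55 to -0.06, edgeR adjusted p = 0.265). Dvl2 on the other strand overlaps 42.9% of the exon bases of Acadvl, and reads of the pair cannot be told apart without strand.

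The other dehydrogenases had smaller differences. Acads, for short chains, had 44.9, 42.7, 41.3 and 45.6 CPM in Sirt7 scKO replicates 1 to 4, against 53.2, 45.8 and 48.5 CPM in control replicates 1 to 3 (log2 fold change -0.17, SE 0.0956, edgeR adjusted p = 0.451). The groups did not overlap, with Sirt7 scKO replicate 4 just below control replicate 2. Acadm, for medium chains, had 40.4, 31.4, 39.5 and 40.3 CPM in Sirt7 scKO, against 37.5, 39.2 and 40.1 CPM in control, and Sirt7 scKO replicate 2 alone lay below the controls. Acadl, for long chains, averaged 84.6 ± 7.201 CPM in Sirt7 scKO and 83.9 ± 3.20 CPM in control (SD, n = 4 and 3), a log2 fold change of 0.01 (edgeR adjusted p = 0.971).

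The later steps of the cycle were close to equal. Hadha, the subunit of the mitochondrial trifunctional protein that hydrates and oxidises long chains, had 136, 129.5, 123 and 119 CPM in Sirt7 scKO replicates 1 to 4, against 137, 133 and 123 CPM in control replicates 1 to 3. Its log2 fold change of -0.05 had a 95% interval of -0.22 to 0.13. Hadhb, its partner subunit and thiolase, is among the genes with copies described above, and the genes are neighbours on chromosome 5. Echs1, the hydratase for shorter chains, Hadh, the dehydrogenase for shorter chains, and the thiolase Acaa2 had log2 fold changes of 0.02, 0.06 and -0.11 (edgeR adjusted p = 0.95, 0.842 and 0.731). The isomerases Eci1 and Eci2 and the reductase Decr1, which prepare unsaturated chains for the cycle, had -0.11, -0.04 and -0.11, with edgeR adjusted p from 0.733 to 0.899.

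Electrons from the dehydrogenases pass through the electron transfer flavoprotein, made of the Etfa and Etfb products, to its oxidoreductase Etfdh. Etfdh had 40.5, 39.0, 39.4 and 34.4 CPM in Sirt7 scKO replicates 1 to 4, against 42.6, 36.8 and 35.4 CPM in control replicates 1 to 3. The ranges overlapped, with means of 38.3 ± 2.68 CPM in Sirt7 scKO and 38.3 ± 3.80 CPM in control (SD, n = 4 and 3). Etfb averaged 62.9 ± 10.1 CPM in Sirt7 scKO and 69.7 ± 4.78 CPM in control (log2 fold change -0.15, edgeR adjusted p = 0.608). Gm45233, a protein-coding model on the same strand, overlaps 53.0% of its exon bases, so the count of Etfb is uncertain.

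Of the regulators, Ppard was the PPAR gene with the higher level. It had 40.9, 35.8, 42.5 and 36.7 CPM in Sirt7 scKO replicates 1 to 4, against 40.0, 45.6 and 42.0 CPM in control replicates 1 to 3 (log2 fold change -0.12, SE 0.103, edgeR adjusted p = 0.633). Ppara, the receptor of liver and oxidative muscle, had 0, 1, 3 and 5 counts in Sirt7 scKO replicates 1 to 4, against 7, 1 and 1 counts in control replicates 1 to 3, and was left untested. Ppargc1a, which encodes PGC-1alpha, had 2.53, 2.62, 2.99 and 2.27 CPM in Sirt7 scKO, against 3.65, 2.52 and 1.75 CPM in control, with the Sirt7 scKO libraries inside the control range and a log2 fold change of -0.01 (95% interval -0.70 to 0.67).

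Pdk4 and Ucp3, which fasting and fatty acids induce in muscle, and the related Ucp2 of immune cells showed no difference past the test. Pdk4, a kinase that shuts pyruvate dehydrogenase and so spares glucose, had 50.5, 28.0, 31.6 and 20.2 CPM in Sirt7 scKO replicates 1 to 4, against 27.1, 29.5 and 19.8 CPM in control replicates 1 to 3 (log2 fold change 0.37, SE 0.246, edgeR adjusted p = 0.546). Without Sirt7 scKO replicate 1 the log2 fold change of Pdk4 was 0.0713 (edgeR adjusted p = 0.903). Ucp3, a mitochondrial carrier of muscle fibres and brown fat, had 16.7, 0.131, 7.34 and 1.32 CPM in Sirt7 scKO, against 3.30, 6.83 and 2.45 CPM in control. Both genes were highest in Sirt7 scKO replicate 1, and the Sirt7 scKO libraries reached both above and below the control range of Ucp3. For Ucp3 the log2 fold change of 0.63 had a 95% interval of -1.15 to 2.41, and it was -0.51 without Sirt7 scKO replicate 1.

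Ucp2 was the uncoupling protein gene with the higher level. It had 603, 613, 667 and 619 CPM in Sirt7 scKO replicates 1 to 4, against 618, 721 and 626 CPM in control replicates 1 to 3 (log2 fold change -0.07, SE 0.0853, edgeR adjusted p = 0.775). Per kb of exon the ratio of Ucp3 to Ucp2 was below 0.1 in every library, from 0.000476 to 0.0619 in Sirt7 scKO and from 0.00873 to 0.0211 in control, with overlapping groups.

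**Figure D4:**
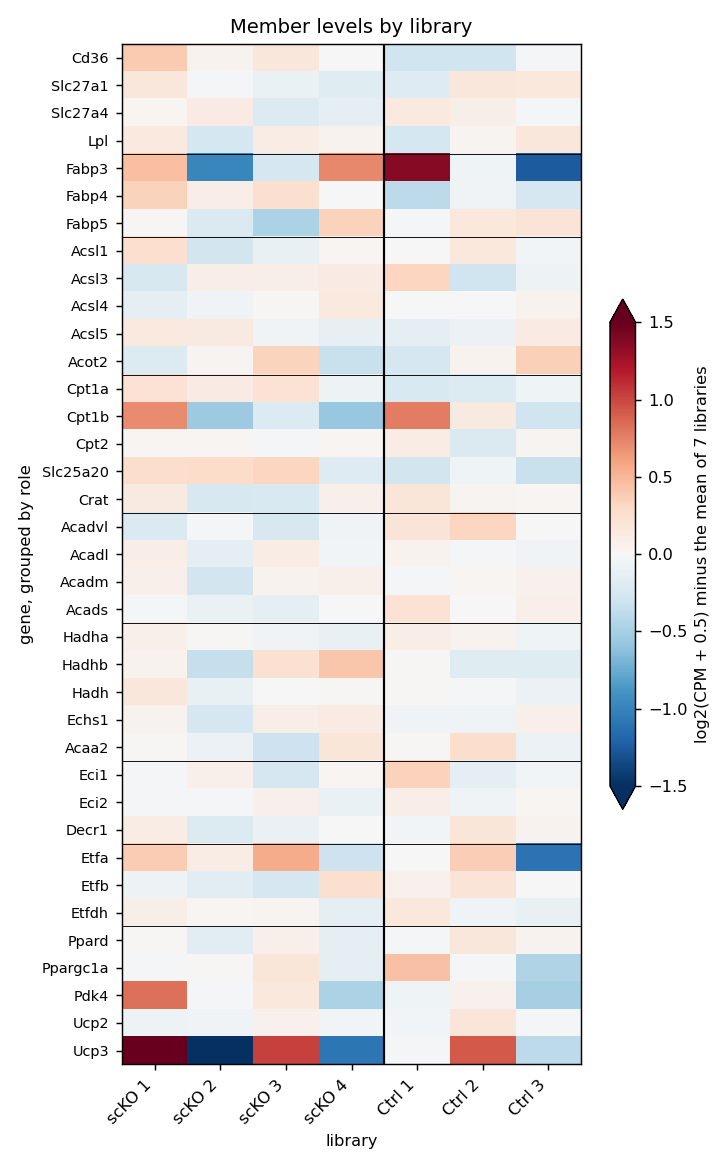
Level of each of the 37 tested members (rows, grouped by role) in the 4 Sirt7 scKO libraries (left of the line) and the 3 control libraries (right), as log2(CPM + 0.5) minus the mean of the 7 libraries; colours are capped at 1.5 in either direction. Cd36, Fabp4, Cpt1a and Slc25a20 are mostly red on the left and blue on the right, and Ucp3, Fabp3 and Cpt1b vary widely between libraries of the same group.

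Levels across the members spanned a wide range when read per kb, over all annotated exons of a gene. With counts at the genes alone, Cd36 stood at the top with 147 CPM per kb in Sirt7 scKO and 114 CPM per kb in control. It was followed by Ucp2 with 89.5 CPM per kb in Sirt7 scKO and 93.7 CPM per kb in control, and by Lpl with 62.9 CPM per kb in Sirt7 scKO and 61.6 CPM per kb in control. Ppara was lowest, with 0.0994 CPM per kb in Sirt7 scKO and 0.137 CPM per kb in control, below Ppargc1a with 0.395 CPM per kb in Sirt7 scKO and 0.4003 CPM per kb in control. Counts on processed copies were left out, so the genes with copies may stand too low on this scale. Genes with long rare exons may do so too, since all exons were counted as length. With its copies Fabp5 averaged 816 CPM in Sirt7 scKO and 732 CPM in control, and the gene has 3567 exon bases. Cd36 averaged 529 CPM in Sirt7 scKO and 411 CPM in control, over 3590 exon bases. The top place of Cd36 thus holds only with copies left out.

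**Figure D5:**
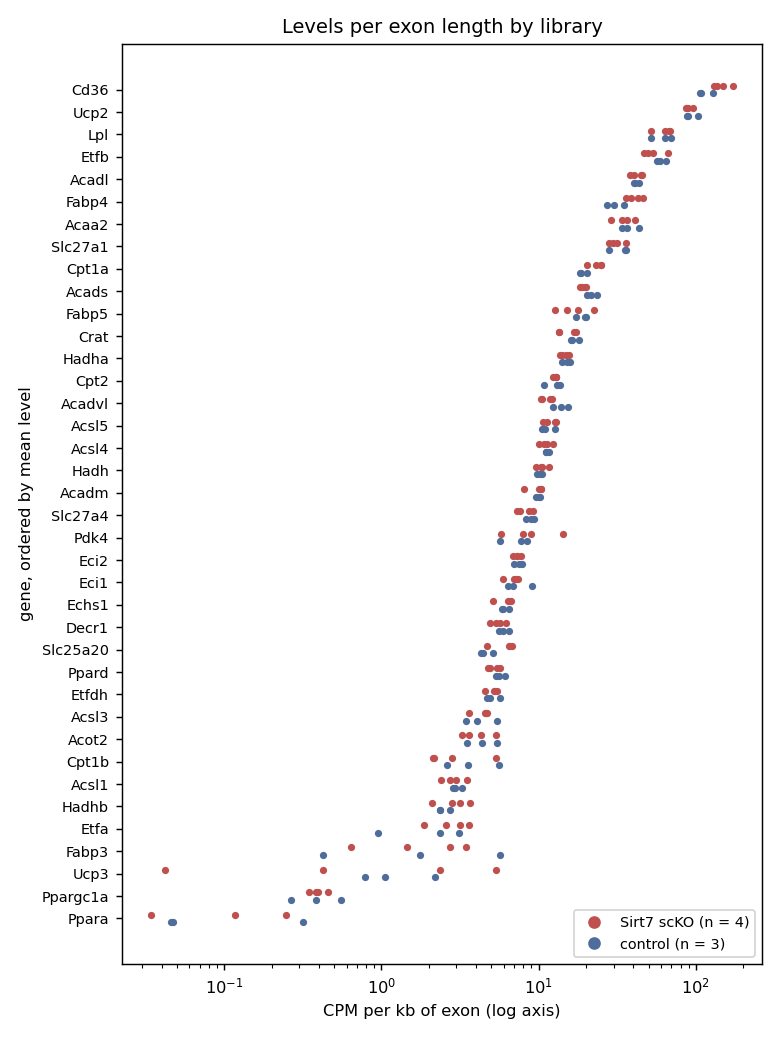
CPM per kb of exon (log axis) of all 38 members in each library, ordered by mean level, with Sirt7 scKO points above control points in each row; 1 Sirt7 scKO library with 0 counts of Ppara is not drawn. With counts on processed copies left out, Cd36, Ucp2 and Lpl are the 3 highest genes and Ppara the lowest.

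The same pathway was read more widely in 130 further genes in 5 lists, of which 117 were tested. None passed with edgeR, and 3 were higher and 10 lower at an unadjusted p under 0.05. Over all tested genes 6.69% were higher and 6.94% lower at that p. DESeq2 passed 2 as lower, Prkag3 and Tecr, where it passed 75 of 14489 genes as lower (1.06% in either direction). The median log2 fold change of the 117 was -0.04, with 54 positive and 63 negative. In the peroxisomal list 8 of 18 tested genes were positive (median -0.03), and the thiolase Acaa1b averaged 6.65 ± 0.650 CPM in Sirt7 scKO and 8.97 ± 1.04 CPM in control. The import receptor Pex5 averaged 41.2 ± 1.998 CPM in Sirt7 scKO and 49.5 ± 7.05 CPM in control, and the acyl-CoA transporter Abcd3 33.4 ± 1.74 CPM in Sirt7 scKO and 28.4 ± 4.27 CPM in control. In the list of other mitochondrial genes 14 of 27 were positive (median 0.01). Acacb, which makes the CPT1 inhibitor malonyl-CoA at mitochondria, averaged 10.7 ± 2.62 CPM in Sirt7 scKO and 16.0 ± 3.82 CPM in control (edgeR adjusted p = 0.261). Mlycd, which removes malonyl-CoA, averaged 18.2 ± 2.88 CPM in Sirt7 scKO and 22.8 ± 1.41 CPM in control, and the synthetase Acsf3 13.4 ± 1.23 CPM in Sirt7 scKO and 16.7 ± 1.19 CPM in control.

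Genes of lipid storage and synthesis were balanced in direction. In the lipid droplet list 9 of 18 tested genes were positive (median -0.01). Plin2, a coat protein of lipid droplets in foam cells and many other cells, averaged 611 ± 72.7 CPM in Sirt7 scKO and 508 ± 49.7 CPM in control (log2 fold change 0.27, SE 0.106, edgeR adjusted p = 0.295). The lysosomal lipase Lipa averaged 437 ± 16.9 CPM in Sirt7 scKO and 379 ± 41.6 CPM in control, and the phospholipase Pnpla8 47.0 ± 4.86 CPM in Sirt7 scKO and 39.8 ± 6.398 CPM in control. In the synthesis list 10 of 20 were positive (median 0.00). Tecr, the reductase of fatty acid elongation, averaged 22.1 ± 4.35 CPM in Sirt7 scKO and 33.4 ± 3.46 CPM in control without overlap (log2 fold change -0.61, SE 0.149, edgeR adjusted p = 0.13). The elongase Elovl5 averaged 78.2 ± 9.32 CPM in Sirt7 scKO and 63.3 ± 7.99 CPM in control, and the sugar-responsive factor Mlxipl 1.59 ± 1.34 CPM in Sirt7 scKO and 4.04 ± 1.47 CPM in control.

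In the list of other transport and regulatory genes 13 of 34 tested were positive (median -0.06). The 3 with the smallest p were subunits of AMP-activated protein kinase, the energy sensor that relieves the block on CPT1. Prkag3, a subunit of fast muscle fibres, averaged 13.0 ± 3.38 CPM in Sirt7 scKO and 23.8 ± 5.71 CPM in control without overlap (log2 fold change -0.87, SE 0.207, edgeR adjusted p = 0.123). Prkab2 averaged 30.9 ± 3.56 CPM in Sirt7 scKO and 41.3 ± 10.01 CPM in control, and Prkaa2 5.72 ± 3.64 CPM in Sirt7 scKO and 11.0 ± 5.34 CPM in control. These muscle-enriched subunits ran beside the lower fibre markers given above, and the part of fibre content in their levels was not tested.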

How the data were processed

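Gene counts of 7 libraries, 4 Sirt7 scKO and 3 control, were used as deposited. The submitters' processing notes name fastp, Bowtie2, featureCounts and the build GRCm38 (mm10), without roles or settings. Annotation release, strand setting and the rule for reads with several matches were not stated. The deposited values are raw counts, which was checked on the table: whole numbers, with unequal totals per library. Identifiers were matched without version to GENCODE mouse release 21 (GRCm38), 48144 of 48820, and the rest held 0.22% of counts. Genes were filtered with filterByExpr (minimum count 10, total 15), which left 16764. They were scaled by TMM and tested by quasi-likelihood in edgeR 4.0.16 (R 4.3.3), Benjamini-Hochberg adjusted over all tested genes with a threshold of 0.05. The SE is the fold change over the square root of F. CPM use TMM factors. P-values set the difference between the groups against the spread between libraries of the same group. DESeq2 1.42.0 and limma 3.58.1 were alternatives, beside other scalings and filters, robust dispersion, a block on the replicate number, and fits that left out each library. The test was tried on simulated data. Processed copies were found with BLAST 2.17.0 (at least 80% of the copy aligned, identity at least 90%). All members are accounted for. A chosen list of members, and the 8 with the smallest p, are given in every library, and of each pathway list up to 3 genes with the smallest p and a mean of at least 1 CPM. Members, lists and alternatives were chosen with earlier results of these data known. Of the listed symbols, 1 was not matched. No column of another sample was present. Figures used Python 3.11.15 and matplotlib 3.10.9.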

Additional observations from a re-analysis of the deposited data

Results flagged for a closer look

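In the group of 4 Sirt7 scKO libraries, 1 library stood far from the other 3 in 4 of the 38 members by Dixon's ratio, where chance alone gives about 1 in 20. Slc25a20 was low in Sirt7 scKO replicate 4 at 22.7 CPM, Acsl3 was low in replicate 1 at 15.8 CPM, Acadm was low in replicate 2 at 31.4 CPM, and Cpt2 was low in replicate 3 at 29.6 CPM, the last within a narrow range. The library differed from gene to gene.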

How the results depend on the processing

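No member passed with RLE, upper-quartile or total-count scaling, with a filter at a mean of 1 CPM, or with limma voom, robust dispersion or copies added (the last chosen after seeing the data). In the alternatives no member passed as lower. The 22 genes called over the whole table (0.131%) became 35 with total-count scaling (0.209%) and 56 with robust dispersion (0.334%). They became 585 without a filter (2.06%, with more genes tested), 154 with DESeq2 (1.06%) and 0 to 330 with a library left out (0 to 1.96%). Members called higher were 2 without a filter, 1 with DESeq2 and 0 to 3 with a library left out. Other pathway genes called lower were 4 without a filter, 2 with DESeq2 and 0 to 2 with a library left out. Marker genes called higher were 6 without a filter and 0 to 2 with a library left out. Marker genes called lower were 1 with upper-quartile or total-count scaling or the 1 CPM filter, 42 without a filter, 3 with DESeq2 and 0 to 23 with a library left out. The cause was not tested.

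The labels do not say that replicate numbers pair the samples. Same-numbered libraries had correlations of deviations of 0.123, -0.074 and 0.096, and those with different numbers from -0.157 to 0.156. These few values cannot decide whether the numbers pair the samples. With the replicate block 537 genes were called, 171 higher and 366 lower, or 3.2% of those tested (1.02% higher). Among them were 4 members, all higher, Fabp4, Cd36, Cpt1a and Slc25a20 (edgeR adjusted p from 0.0298 to 0.0476). The block also called 2 other pathway genes lower, 2 markers higher and 28 markers lower. The block turned the log2 fold changes of Acsl3 to -0.0067, Echs1 to -0.0193 and Ppargc1a to 0.0551.

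Of 627 member values under 17 alternatives, 43 turned direction, in 20 members, and 17 members kept theirs in all. Limma voom turned Ppargc1a to 0.0347 and Ucp3 to -0.72. Added copies turned Fabp5 to 0.15, Hadhb to -0.13 and Etfa to -0.0092, since most counts lie on the copies. With a library left out, log2 fold changes that turned ran from -0.0911 to 0.13 for Lpl, -0.90 to 0.87 for Fabp3 (untested without Sirt7 scKO replicate 1 or 4), -0.16 to 0.0334 for Acsl1, -0.12 to 0.21 for Acsl3, -0.0686 to 0.0272 for Acsl4, -0.24 to 0.0871 for Acot2, -0.73 to 0.0241 for Cpt1b, -0.0633 to 0.0894 for Cpt2, -0.0259 to 0.065 for Acadl, -0.0784 to 0.0446 for Acadm, -0.0013 to 0.10 for Hadh, -0.0159 to 0.11 for Echs1, -0.21 to 0.0473 for Eci1, -0.0439 to 0.083 for Etfdh, -0.23 to 0.29 for Ppargc1a, -0.11 to 0.0072 for Ucp2 and -0.51 to 1.16 for Ucp3. The log2 difference of ratios, Sirt7 scKO minus control, ran with a library left out from -1.77 to 0.57 for Ucp3 to Ucp2, -1.28 to 0.67 for Fabp3 to Fabp4, -0.72 to 1.26 for Fabp3 to Fabp5 and -0.19 to 0.0264 for Acsl1 to Acsl4. With copies it was -0.91 for Fabp3 to Fabp4 (-0.32 at the genes alone), -0.66 for Fabp3 to Fabp5 (0.28 at the genes alone, so turned) and 0.25 for Fabp4 to Fabp5 (0.60 at the genes alone). The groups overlapped in all 3 ratios at the genes alone, and with copies only in Fabp3 to Fabp5. Low counts limit Ppara, Ppargc1a, Fabp3 and Etfa. No interval was computed for Ppara, and those of Fabp3 (-1.83 to 1.03), Etfa (-0.36 to 1.14) and Ppargc1a (-0.70 to 0.67) are wide. Ucp3 ran from 1 to 119 counts within Sirt7 scKO, and its interval is wide too.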
